A study of Mus musculus with 2 samples.

Results

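The response of AID transgenic mouse liver to 6 months of thioacetamide was read from 1 Agilent array with 2 colours, which is 1 of the 2 arrays of the series and was chosen by its title. The Cy5 channel held liver RNA of AID transgenic mice that were given thioacetamide in the drinking water, and the Cy3 channel held liver RNA of untreated AID transgenic mice, so both channels carry the transgene. The other array held treated and untreated wild-type liver in the same arrangement, and all animals were of the C57BL/6 background. The sources used here do not give sex, age, the promoter of the transgene, or whether a channel held 1 animal or a pool. Each difference below compares 1 RNA sample with another without a replicate check, so it carries no p-value and its precision is limited by the number of arrays.

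AID, activation-induced cytidine deaminase, is the enzyme of B cells that deaminates cytosine to uracil in antibody genes. Thioacetamide is harmless until hepatocytes oxidize its sulfur, mainly through the cytochrome P450 enzyme CYP2E1 and flavin monooxygenases, and the reactive products bind proteins in the pericentral hepatocytes where CYP2E1 is made. Long exposure is used in rodents to produce hepatocyte injury, fibrosis and liver tumours, and the surviving hepatocytes meet the toxin with glutathione, conjugating enzymes and exporters, many of them under the transcription factor NRF2.

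Of 22803 genes on the array, 16693 had a probe well above background in at least 1 channel. Values are log2 ratios of treated over untreated liver, and a gene is said to have risen or fallen when its ratio was at least 2-fold. By this rule 361 genes changed (2.16% of those measured), of which 203 rose (1.22%) and 158 fell (0.947%), so that 56.2% of the changes were increases. That share was 69.7% with a normexp offset of 0, 76.6% with the scanner's processed signals and 96.2% with median centring. Behind ± stands the spot error of the scanner software in log2 units, and where a gene had several probes or repeat spots their SD is given instead. The scanner error belongs to the software's own processed ratio and not to the ratio given here. The median SD was 0.07 between repeat spots and 0.14 between probes of a gene. The scaling matters for the genes that fell: the median of all measured genes was 0.03 after loess within the array, which is used here, and 0.34 with plain median centring, where all 158 genes kept a ratio below 0 but 51 stayed 2-fold lower. Ratios between -1 and 0 can also change sign with the scaling. Cyp1a2, Cyp2b10, Cpt1a, F7, Dbp, Per1 and Nr1d1, described below, lay between 0.01 and 0.21 with median centring. Because 2.16% of all measured genes reached 2-fold, a short gene list with 0 such genes is near that share. Without a dye swap, a dye effect on a gene and the treatment cannot be told apart.

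Wild-type values are given beside the transgenic ones, and 202 of the genes that rose and 156 of those that fell were measured on both arrays. Of these, 102 also rose and 69 also fell on the wild-type array, where 1.86% and 1.64% of measured genes did (3.5% in all). Among the genes that rose 182 had a wild-type ratio above 0, as had 54.5% of all genes measured on both arrays, and among the genes that fell 133 had one below 0, against 45.5%. A difference between 2 log2 ratios (transgenic minus wild-type) reached 1 upward in 0.972% and downward in 1.06% of 16249 genes. A feature of the wild-type array touches every such comparison. The Y-linked genes Ddx3y and Eif2s3y had levels of 10.09 and 10.80 in untreated and 9.98 and 10.75 in treated transgenic liver, on a normalized log2 scale. In wild-type liver their levels were 9.99 and 10.86 untreated and 5.39 and 5.59 treated, and Xist, the RNA of the inactive X chromosome, was well above background in the treated wild-type liver alone, at 8.90. The transgenic channels therefore matched each other in these transcripts and the wild-type channels did not.

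Of 6 cytidine deaminase genes of the family list 4 were measured and 1 rose, Cda, which salvages cytidine (1.40 ± 0.26, and 1.99 ± 0.31 in wild-type). Apobec1, the enzyme that edits apolipoprotein B messenger RNA, had 0.68 ± 0.21 and 0.66 ± 0.21. None of 20 listed genes of uracil, mismatch and base excision repair reached 2-fold in either direction, as 2.16% of all measured genes did. Among them Ung, which removes uracil from DNA, had levels of 14.64 and 14.84 in untreated and treated transgenic liver and of 14.87 and 14.68 in wild-type.

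The tissue matched its label. All 12 hepatocyte marker genes were measured, with Alb at 17.28 untreated and 17.45 treated and the lineage factor gene Hnf4a at 15.37 and 15.25. Apoa1 and Tat were the markers that fell. Of 12 pancreatic acinar markers 6 were measured and 0 reached 2-fold, and their summed level was 11.03 untreated and 10.44 treated. Of 10 mesothelial and gallbladder markers 5 were measured with 0 at 2-fold and a summed level of 9.73 and 9.22. Of 9 adipocyte markers 6 were measured, with summed levels of 10.61 and 11.22, and 1 rose, the fatty acid carrier gene Cd36, which hepatocytes and endothelium also make.

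**Figure D1:**
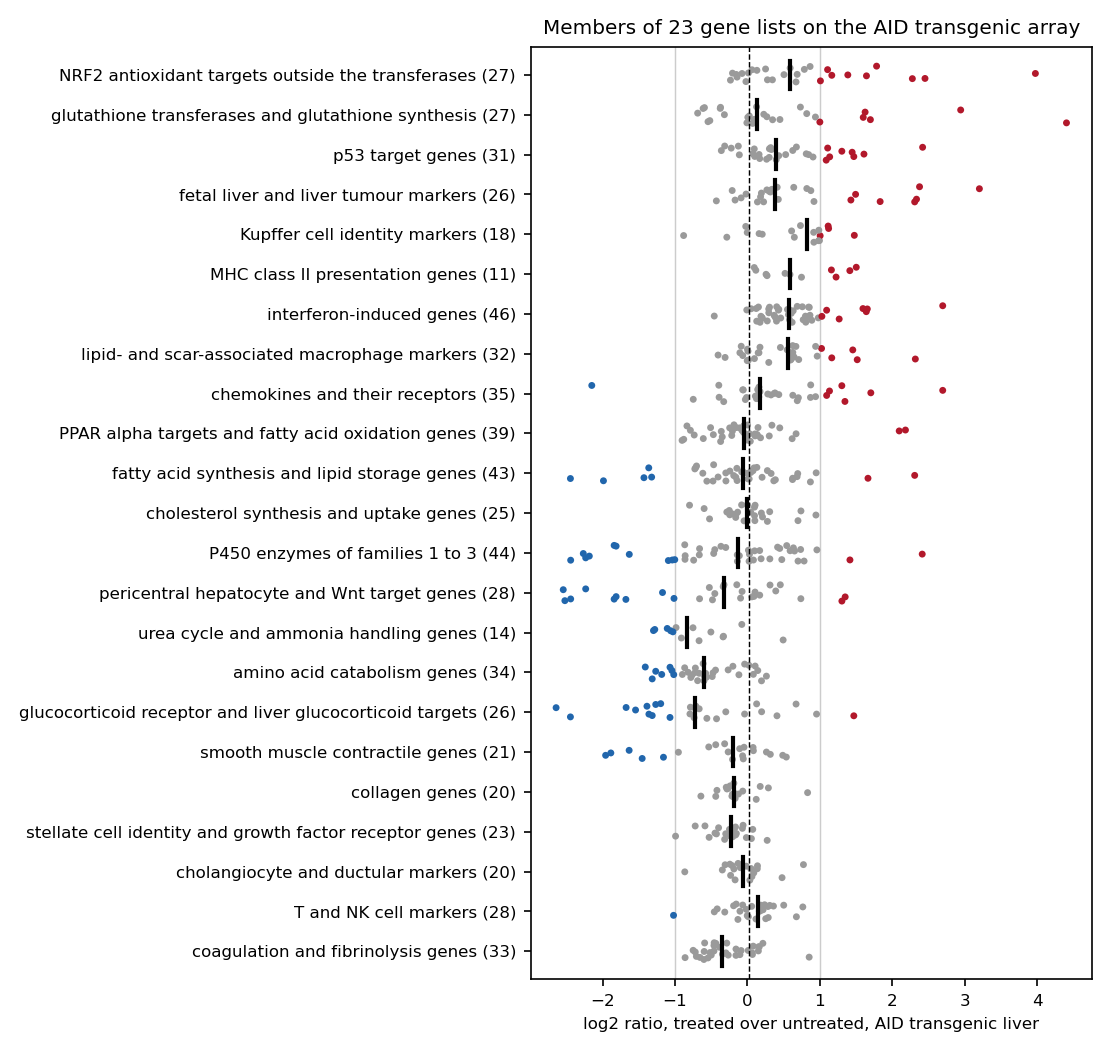
Log2 ratios of treated over untreated AID transgenic liver for the measured members of 23 gene lists, with the number measured in brackets. Each point is a gene, red where it rose and blue where it fell at least 2-fold, the thick bar is the list's median and the dashed line the median of all measured genes (0.03). Among the lists drawn, at this scaling, the Kupffer cell list has the highest median (0.82) and the urea cycle list the lowest (-0.83). No gene drawn for the collagen, stellate cell, ductular or coagulation lists passes the 2-fold lines.

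Cyp2e1 and Por were the genes of thioacetamide activation that fell in the treated transgenic liver. Cyp2e1 fell by 1.84 on the log2 scale, with an SD of 0.63 between its 2 probes, which read -2.29 and -1.40. Its level went from 16.88 to 15.04, against 16.66 and 15.74 in wild-type liver, where the ratio was -0.92. Por, the reductase that supplies P450 enzymes with electrons, fell at -1.03 ± 0.22 (wild-type -0.35 ± 0.21). Of 9 genes of this activation list these 2 fell and 0 rose, 4 had a ratio above 0, and the median was -0.13. The flavin monooxygenase gene Fmo1 had 0.35, with an SD of 0.12 between 2 probes.

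Among 44 P450 genes of families 1 to 3, 10 fell and 2 rose. Of the 10, 8 belong to the Cyp2c subfamily, whose enzymes oxidize drugs, steroids and arachidonic acid, and the others are Cyp2e1 and Cyp2j5. Cyp2c29 had a level of 15.17 untreated and 12.72 treated, a ratio of -2.44 with an SD of 0.02 over 10 spots. In wild-type liver its levels were 14.98 and 14.45. Cyp2c39 fell from 13.66 to 11.39 and Cyp2c37 from 13.52 to 11.29, while the wild-type levels of Cyp2c39 were 13.59 and 13.08 and those of Cyp2c37 were 13.45 and 12.78. Cyp2c54 fell from 13.12 to 10.94, against 12.97 and 12.79 in wild-type. The untreated livers thus lay close together for these genes, and the treated transgenic liver was the low channel of the 4. Of the 10 P450 genes that fell, 1 fell in wild-type, Cyp2j5, and the wild-type ratios of the 10 ranged from -1.20 to 0.84. The Cyp2c genes are near-identical copies, so probes can read more than 1 of them, and the 2 Cyp2c38 probes read -3.23 and -0.04.

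The other P450 genes varied. The list's median was -0.12, below that of all genes with loess and 0.01 above it with median centring. The constitutive Cyp1a2 had -0.66 ± 0.21, and Cyp3a11, the main drug-oxidizing P450 of family 3, had 0.70 with an SD of 0.86 between 2 probes. Cyp2b10, the classic target of the receptor CAR, had a ratio of -0.45 ± 0.21 in transgenic liver, while in wild-type it went from 11.36 to 14.14 (2.79 ± 0.34). Cyp1a1, the target of the aryl hydrocarbon receptor, rose by 1.42 ± 0.30 (wild-type 0.75 ± 0.28). Cyp2a4, a female-biased steroid hydroxylase gene, rose by 2.41, with an SD of 0.42 between 2 probes, and by 3.01 in wild-type. The pseudogene Cyp2a21-ps, a near copy of the same family, read 2.68 ± 0.31. Of 12 xenobiotic receptor genes 1 fell, Nr1i2, which encodes the pregnane X receptor (11.34 to 9.90, against 10.27 and 10.12 in wild-type).

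Of 27 measured glutathione transferase and glutathione synthesis genes 6 rose and 0 fell, with a list median of 0.13 against 0.03 for all genes. Gsta1 had the largest ratio of the array, from a level of 11.31 to 15.72 (4.41 ± 0.47), and Gsta2 went from 12.58 to 15.52. Wild-type liver had 10.99 and 15.31 for Gsta1 and 11.97 and 15.25 for Gsta2, so that the arrays differed by less than the technical error. Gclc, the catalytic subunit of the first enzyme of glutathione synthesis, rose by 1.70 ± 0.26, and Gstm3 by 1.63 with an SD of 0.49 between 2 probes. All 6 also rose in wild-type liver. The alpha and mu transferases are close copies that probes may not separate, as for Gm10639, a gene model that read 2.97 with an SD of 1.30 between its 2 probes.

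Of 27 NRF2 targets outside the transferases 9 rose and 0 fell, with a median of 0.59, and all 9 rose in wild-type too. Cbr3, a carbonyl reductase, went from 8.43 to 12.41 in transgenic liver and from 7.97 to 10.99 in wild-type. Osgin1, an oxidative stress-induced growth inhibitor, went from 12.17 to 14.63 and in wild-type from 12.17 to 13.55. Nfe2l2, the gene of NRF2, rose by 1.78 ± 0.27 against 1.29 ± 0.24 in wild-type. Abcc4, an exporter of conjugates and bile acids across the basolateral membrane, rose by 2.28 ± 0.35, and the quinone reductase gene Nqo1 by 1.17 ± 0.25 against 2.21 ± 0.35. Hmox1, the haem oxygenase gene, had 0.51, with an SD of 1.13 between its 2 probes. Of 9 NADPH-supplying genes 2 rose, Pgd at 1.30 ± 0.24 and G6pdx at 1.03 ± 0.23, both of the oxidative pentose phosphate pathway.

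The antioxidant response element that NRF2 binds was searched for in the 250 bases before each RefSeq start as TGACNNNGC on both strands. It was present in 6 of 22 measured members of the NRF2 list with a promoter in the table, in 5 of 23 of the transferase list, and in 11.5% of all 27025 genes. Of the 9 NRF2 list members that rose 3 held a match, Abcc2, Abcc4 and Nfe2l2, and of the 5 transferase list members that rose and had a promoter 0 did. The sequences of these 3 are printed because they are the genes of the response that hold the letters in this window. They run 5′ to 3′ along the gene, from RefSeq on GRCm38.p6, with the match in capitals. They lie at chr14:118706220-118706469 (minus strand) for Abcc4, chr2:75704664-75704913 (minus strand) for Nfe2l2 and chr19:43782058-43782307 (plus strand) for Abcc2.
Abcc4: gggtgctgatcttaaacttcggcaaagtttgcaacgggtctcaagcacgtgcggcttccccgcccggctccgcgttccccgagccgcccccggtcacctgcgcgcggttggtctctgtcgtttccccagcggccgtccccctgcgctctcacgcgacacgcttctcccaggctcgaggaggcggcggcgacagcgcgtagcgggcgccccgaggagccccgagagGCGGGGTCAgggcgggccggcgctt
Nfe2l2: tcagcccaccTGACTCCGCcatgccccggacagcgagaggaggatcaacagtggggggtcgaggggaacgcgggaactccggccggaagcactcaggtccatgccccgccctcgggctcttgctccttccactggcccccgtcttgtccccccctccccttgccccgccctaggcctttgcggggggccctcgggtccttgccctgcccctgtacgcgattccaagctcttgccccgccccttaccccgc
Abcc2: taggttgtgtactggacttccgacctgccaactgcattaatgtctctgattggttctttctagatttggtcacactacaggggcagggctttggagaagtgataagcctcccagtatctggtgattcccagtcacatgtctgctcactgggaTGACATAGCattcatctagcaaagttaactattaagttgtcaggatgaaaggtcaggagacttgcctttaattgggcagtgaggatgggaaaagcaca
The matches begin 25, 240 and 98 bases before the start in Abcc4, Nfe2l2 and Abcc2. The other RefSeq start of Abcc4 holds a match as well. A match is a description of the letters and no evidence of binding.

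Other conjugation genes split. Of 13 glucuronidation genes 2 rose, Ugdh, which makes the glucuronic acid donor (1.20 ± 0.23), and the transferase gene Ugt2b34 (1.03 ± 0.22). Of 12 sulfotransferase genes 1 rose and 2 fell. Sult1e1, which inactivates oestrogen, was not well above background untreated and rose at least 3.66-fold. Sult2a8, a bile acid sulfotransferase, fell from 14.60 to 12.23, and in wild-type the levels were 14.60 and 13.23. Sult1a1, the phenol sulfotransferase, fell from 14.33 to 12.83 while the wild-type levels were 14.49 and 14.81, so that the treated transgenic liver was again the low channel. Aldh1a1, a retinaldehyde dehydrogenase, rose by 1.60 ± 0.24, with Aldh1b1 and Aldh3b1 at 1.06 ± 0.23 and 1.06 ± 0.24, and 0 of 18 aldehyde dehydrogenase genes fell.

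**Figure D2:**
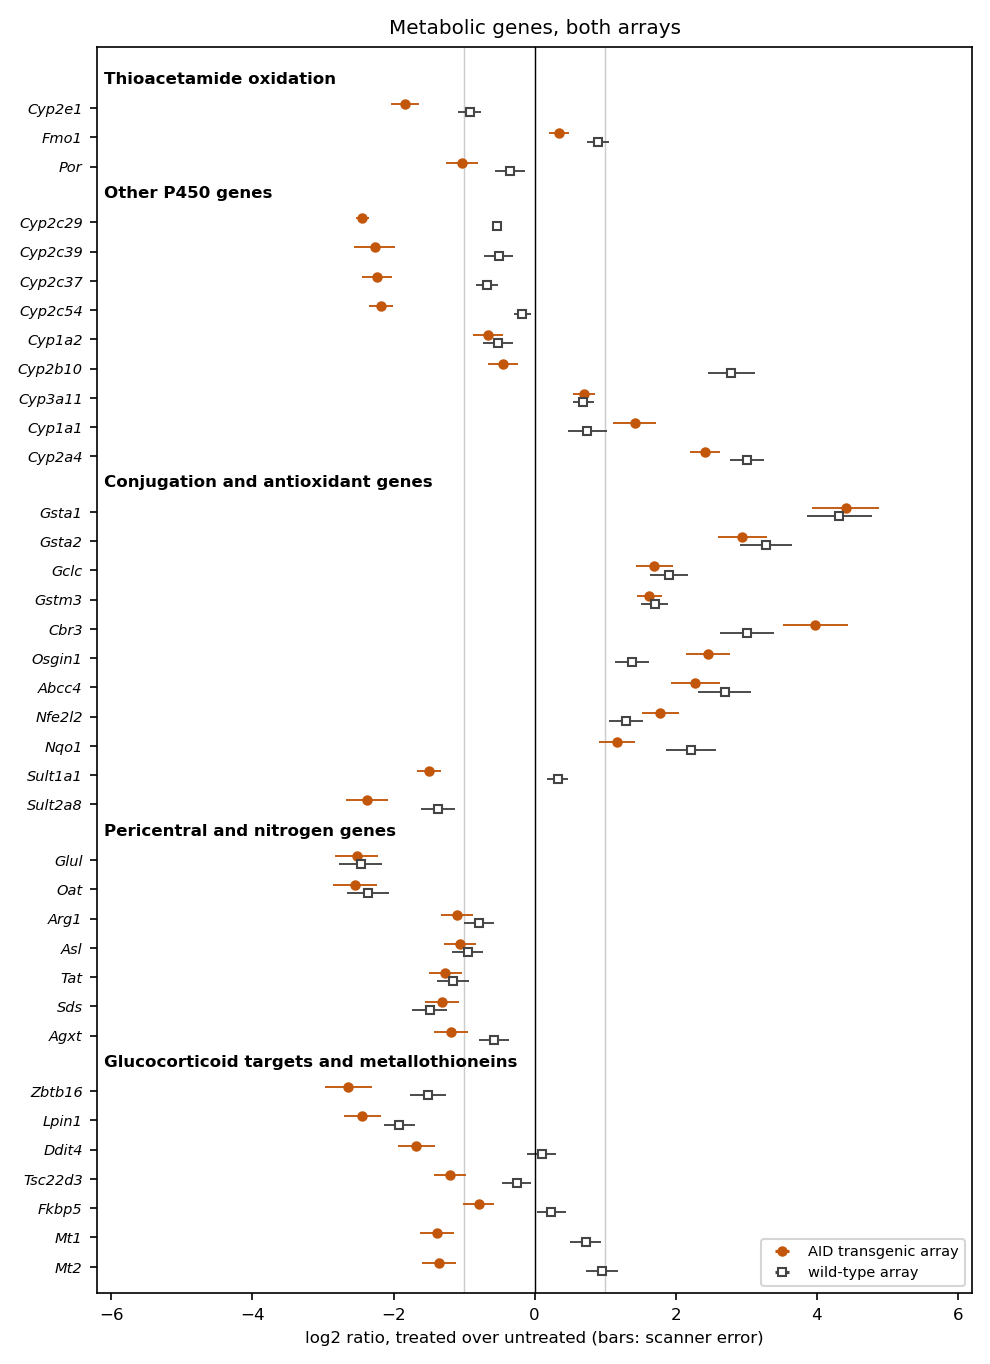
Log2 ratios of treated over untreated liver for named metabolic genes, filled circles for the AID transgenic array and open squares for the wild-type array, with bars for the scanner software's error averaged over the spots and probes of a gene. Vertical lines mark 2-fold. The transferase and NRF2 target ratios lie above 1 on both arrays, with Cbr3 and Osgin1 higher on the transgenic and Nqo1 on the wild-type array, while the Cyp2c genes, Sult1a1, Ddit4, Mt1 and Mt2 lie below -1 on the transgenic array and not on the wild-type array.

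Some of the pericentral and urea cycle genes that fell did so on both arrays. Of 28 pericentral and Wnt target genes 9 fell and 2 rose (median -0.33, and 0.25 below all genes with median centring). All 9 had wild-type ratios below 0, and 3 of them fell there at 2-fold. The wild-type median of the list was -0.12. Glul, the glutamine synthetase that fixes leftover ammonia in the last rows of hepatocytes before the vein, fell from 14.18 to 11.65, and Oat, which makes its substrate, from 14.24 to 11.70. Wild-type liver had 14.07 and 11.60 for Glul and 14.18 and 11.82 for Oat, nearly the same course. The 2 that rose were Tbx3, a Wnt-responsive transcription factor gene (1.35 ± 0.24), and Rnf43, a membrane inhibitor of Wnt signals (1.30 ± 0.24).

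Of 14 urea cycle and ammonia handling genes 5 fell and 0 rose, with a list median of -0.83 (0.47 below all genes with median centring). They were Slc38a2 and Slc7a2, which import glutamine and arginine (-1.30 ± 0.24 and -1.28 ± 0.24), Arg1, which splits arginine to urea (-1.11 ± 0.23), Asl, the argininosuccinate lyase (-1.06 ± 0.22), and Otc (-1.03, SD 0.51 between 2 probes). Cps1, which starts the cycle, had -0.99 ± 0.22, just inside 2-fold. Wild-type ratios of the 5 ran from -1.29 to -0.79, with 2 of them at 2-fold. None of the 14 genes differed 2-fold between the arrays. Of 34 amino acid catabolism genes 7 fell and 0 rose (median -0.61), led by Hpd of tyrosine breakdown (-1.41 ± 0.24), Sds, the serine dehydratase (-1.32 ± 0.24), Tat (-1.27 ± 0.24) and Agxt, which detoxifies glyoxylate (-1.18 ± 0.24). Of 16 gluconeogenesis genes 3 fell: Got1 of the aspartate shuttle (-1.87 ± 0.27), Pck1, which commits carbon to glucose (-1.55 ± 0.26), and Foxo1, the factor that drives the pathway in fasting (-1.28, SD under 0.01 between 2 probes). In glycolysis 1 of 26 genes fell, Pfkfb1 at -1.10 ± 0.23, while the pyruvate kinase genes Pklr and Pkm had 0.38 ± 0.21 and 0.43 ± 0.21.

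Of 26 genes of the glucocorticoid receptor and its liver targets 10 fell and 1 rose, with a median of -0.73, against -0.23 on the wild-type array, where 6 fell and 3 rose. Zbtb16, a zinc finger factor that glucocorticoids induce, fell from 11.40 to 8.76, and in wild-type from 11.25 to 9.74. Lpin1, a phosphatidate phosphatase and coactivator, fell by 2.44 (SD 1.25 between 2 probes). Tsc22d3, which encodes the glucocorticoid-induced leucine zipper protein, fell by 1.20 ± 0.23, and its wild-type ratio was -0.26 ± 0.20. Fkbp5, which damps the receptor, had -0.79 ± 0.22 against 0.23 ± 0.21. The member that rose was Cdkn1a, described below with the p53 targets.

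Mt2, Mt1, Igfbp1 and Ddit4 had the largest differences from wild-type in this list. Mt1, a metal-binding protein gene induced by zinc and glucocorticoids, had equal levels of 13.23 in both untreated livers. It fell to 11.84 in the treated transgenic liver and stood at 13.96 in the treated wild-type liver. Mt2 went from 11.56 to 10.20 in transgenic liver and from 11.44 to 12.40 in wild-type. The other 10 measured metallothionein and zinc transporter genes stayed within 2-fold. Ddit4, an inhibitor of mTOR complex activity, had its high channel elsewhere: 12.59 in untreated transgenic liver against 10.91 treated, and 11.30 and 11.40 in wild-type. Igfbp1, the insulin-repressed binding protein of IGF, likewise had 15.63 and 14.91 in transgenic but 13.94 and 15.21 in wild-type liver, and its transgenic ratio of -0.72 ± 0.22 did not reach 2-fold and was 0.05 with median centring.

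Among 21 clock genes 1 rose and 1 fell. Arntl, which encodes the activator BMAL1, rose by 1.62 ± 0.28 (wild-type 2.62 ± 0.40), and the ubiquitin protease gene Usp2, a clock output, fell by 1.04 ± 0.23 (wild-type -1.67 ± 0.26). Dbp had -0.62 (SD 0.13 between 2 probes), Per1 -0.67 ± 0.21 and Nr1d1 -0.43 ± 0.21. With median centring they had 0.08, 0.01 and 0.17, so their direction rests on the scaling. The sources used here do not state the hour at which the livers were taken.

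Of 43 fatty acid synthesis and storage genes 2 rose and 5 fell, and the list's median of -0.06 lay below that of all genes with loess and 0.16 above it with median centring. Scd2, a stearoyl desaturase of fetal liver, rose from 9.58 to 11.89, and Cd36 from 8.09 to 9.76, while wild-type liver had 7.90 and 11.42 for Scd2 and 9.03 and 11.17 for Cd36. Elovl3, a male-biased fatty acid elongase, fell from 13.02 to 11.03, and Lpin2 fell by 1.43 ± 0.24. Fitm1, a lipid droplet protein gene, fell from 9.18 to 7.82, and in wild-type from 10.42 to 8.06. The adult desaturase gene Scd1 had 0.33 ± 0.21 and Fasn 0.39 ± 0.21, where wild-type had -1.22 ± 0.23 and -0.70 ± 0.22.

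Of 39 PPAR alpha targets and oxidation genes 2 rose and 0 fell, while 8 rose and 1 fell in wild-type. The transgenic ratio was at least 2-fold below the wild-type one in 7 genes and above it in 0. Pdk4, which blocks pyruvate oxidation, rose by 2.10 ± 0.31, close to the 2.48 ± 0.34 of wild-type. Cyp4a14, a fatty acid omega-hydroxylase, rose from 11.58 to 13.77, against 10.64 to 15.02 in wild-type. Cpt1a, which admits fatty acids to the mitochondrion, had -0.61 (SD 0.15 between 2 probes), and the fasting hormone gene Fgf21 had 0.67 ± 0.24. None of 25 cholesterol synthesis and uptake genes reached 2-fold: Sqle, the squalene epoxidase, had 0.74 ± 0.21 (wild-type 1.92 ± 0.27). In bile acid synthesis 2 of 18 genes fell, the oxysterol hydroxylase genes Cyp39a1 (10.56 to 8.61, wild-type 9.78 to 9.72) and Cyp27a1 (-1.17, SD 0.04 over 10 spots), while the rate-limiting Cyp7a1 had -0.12 ± 0.21. Of the transporters Slco1a1 and Slco1a4, which take up organic anions, fell by 1.91 ± 0.28 and 1.20 ± 0.25, and the canalicular exporter gene Abcc2 rose by 1.01 ± 0.23.

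Most plasma protein genes stayed within 2-fold, as did most genes of the array, where 2.16% of those measured passed it. None of 33 coagulation genes on the list passed 2-fold, which is near that share, and F7 had -0.60 (SD 0.02 between 2 probes). Serpina5, a serpin gene outside the list, rose from 6.62 to 8.08 (wild-type 6.41 and 6.42). Apoa1, the main protein of high-density lipoprotein, fell from 15.50 to 13.66, a ratio of -1.84 with an SD of 0.01 over 10 spots, and in wild-type from 15.20 to 13.42. Apoc2, the activator of lipoprotein lipase, rose by 1.07 ± 0.22, Apoa4 by 1.03 ± 0.23, and Lipc, the hepatic lipase, fell by 1.13 ± 0.25. The mannose-binding lectin genes parted, with Mbl2 at 1.08 ± 0.22 and Mbl1 at -1.04 ± 0.23, and did so in wild-type as well (1.20 ± 0.23 and -0.95 ± 0.22). The transcription factor genes Cebpb and Cebpd, which drive acute phase and metabolic programmes, fell by 1.13 ± 0.23 and 1.19 ± 0.23. Igfbp2 fell from 14.69 to 13.53, and both transgenic channels lay above the wild-type levels of 13.12 and 12.49.

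Of 32 acute phase genes 3 rose, the serum amyloid genes Saa1, Saa2 and Saa3, and 3 fell. Saa2 had 11.60 untreated and 14.11 treated in transgenic liver, and 14.32 untreated and 11.84 treated in wild-type. Saa1 had 12.03 and 13.83 in transgenic and 14.31 and 12.18 in wild-type liver. The high channels were thus the treated transgenic and the untreated wild-type liver, at like levels. Saa3, made by macrophages and fat as well as liver, rose by 1.69 ± 0.27 (wild-type 0.73 ± 0.22). Fgl1, a hepatocyte protein of the fibrinogen family, fell by 1.22 (SD 0.28 between 3 probes), the interleukin 6 receptor gene Il6ra by 1.04 ± 0.22 and Orm1, orosomucoid, by 1.01 ± 0.22. The complement gene C3 had 0.09 (SD 0.30 between 2 probes).

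Of 31 p53 target genes 8 rose and 0 fell, with a median of 0.40, and 7 of the 8 rose in wild-type too. On the wild-type array 12 of 30 rose and 1 fell, with a median of 0.78. The transgenic ratio was the higher one in 7 of 30. Phlda3, which restrains AKT, went from 8.21 to 10.63 in transgenic and from 8.71 to 12.36 in wild-type liver. Aen, a nuclease of apoptosis, rose by 1.61 (SD 0.04 between 2 probes), and Plk2 by 1.45 ± 0.30. Cdkn1a, the p21 inhibitor of cyclin-dependent kinases, averaged 1.47, but its probes read 2.72 and 0.22. Of 27 mitosis genes on the list 1 rose, Cdc20 (7.10 to 8.45, wild-type 7.16 to 9.43), against 8 of 29 in wild-type. On the transgenic array 25 of the 27 had a ratio above 0, with a median of 0.40. Relative to all genes that median was 0.38 higher with loess, 0.15 with median centring, 0.77 with a normexp offset of 0 and 1.32 with the scanner's processed signals, so its size rests on the processing. Mki67 had 0.82 (SD 0.10 between 2 probes) against 1.83. Incenp and Kif22, mitosis genes outside the list, rose by 1.06 (SD 0.09 between 2 probes) and 1.11 ± 0.26. Each had a wild-type ratio of 1.20. Of 33 cell cycle entry and replication genes on the list 0 passed 2-fold. Mcm10, a replication gene outside it, fell from 13.84 to 12.49, and in wild-type from 13.26 to 11.48.

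Fetal liver and tumour markers included several of the largest increases. Of 26 measured, 7 rose and 0 fell, with a median of 0.37. Ly6d, a small surface protein gene, went from 7.49 to 10.69 and Afp, alpha-fetoprotein, from 7.56 to 9.94, an SD of 0.11 over 10 spots, and wild-type had 7.43 and 10.71 for Ly6d and 7.23 and 9.69 for Afp. Gpc3, a cell surface proteoglycan, rose at least 5.05-fold. Spink1, a trypsin inhibitor gene, rose from 7.38 to 9.21 in transgenic liver and had 6.85 and 6.78 in wild-type. Other large increases were in Car2, a carbonic anhydrase gene (7.81 to 10.93), and the protease inhibitor gene Slpi (7.89 to 10.21), and both had wild-type ratios above the transgenic ones, at 3.51 ± 0.43 and 2.87 ± 0.37.

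Of 21 smooth muscle contractile genes 5 fell, 0 rose and 6 had a ratio above 0 (median -0.21, and 0.40 below all genes with median centring). Acta2, the actin of smooth muscle and activated stellate cells, had 10.09 in untreated and 8.20 in treated transgenic liver, a ratio of -1.89 with an SD of 0.07 over 9 spots. The wild-type levels were 8.68 and 8.36, close to the treated transgenic one. Cnn1, calponin, had 8.59 and 6.63 in transgenic and 7.24 and 7.03 in wild-type liver, and Myl9, a myosin light chain, 10.82 and 9.19 against 9.77 and 9.59. Tpm2, a tropomyosin, differed from these, since it fell on both arrays, from 8.36 to 6.91 and in wild-type from 8.38 to 7.10. In bulk tissue, fewer cells of a type and less RNA per cell cannot be told apart.

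The CArG box, the site of serum response factor, was searched for in the same upstream windows because smooth muscle genes share it. It was found in 6 of 17 measured contractile genes with a promoter in the table and in 1.62% of all genes. Of the 4 contractile genes that fell and had a promoter 1 held a match, Myl9, at chr2:156775214-156775463 (plus strand), printed with the match in capitals.
Myl9: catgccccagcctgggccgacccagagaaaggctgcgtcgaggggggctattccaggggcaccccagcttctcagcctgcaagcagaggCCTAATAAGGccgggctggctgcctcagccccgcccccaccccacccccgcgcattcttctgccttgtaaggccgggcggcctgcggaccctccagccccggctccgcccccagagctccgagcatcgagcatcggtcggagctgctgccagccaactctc
The match begins 161 bases before the start. The same box was in 3 of 22 measured immediate early genes with a promoter, and in 0 of the 2 of those that rose.

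None of 20 collagen genes on the list and none of 23 stellate cell genes reached 2-fold, with medians of -0.19 and -0.23. Over all measured genes 2.16% did. Col7a1, a collagen gene outside the list, rose by 1.43 ± 0.29, and by 1.66 ± 0.31 in wild-type. Col1a1, the main fibrillar collagen of scar, had 9.41 untreated and 8.98 treated, a ratio of -0.44 ± 0.21, where wild-type had 8.54 and 10.13. With median centring the ratio was 0.17, so its direction rests on the scaling. Lrat, which stores retinol as ester in stellate cells, had -0.53 ± 0.22 against 0.80 ± 0.22 in wild-type. Ccn2, a matricellular target of TGF beta and YAP, fell by 1.15 ± 0.24, the 1 gene of 44 on the matrix list to pass 2-fold. Tgfb1 had 0.25, with an SD of 0.11 between repeat spots. The antagonist genes of the TGF beta family Fst, follistatin, and Smad7 rose by 1.68 ± 0.27 and 1.07 ± 0.24. Of 20 ductular markers 0 passed 2-fold, and Krt19 had 7.50 and 6.64 in transgenic against 6.96 and 7.55 in wild-type liver.

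Cyp26b1, which degrades retinoic acid, was the largest difference among the retinoid genes. Its level was 11.56 in untreated and 8.33 in treated transgenic liver, and 11.20 and 11.92 in wild-type liver. The ratio was -3.23 ± 0.39 against 0.73 ± 0.22, with the treated transgenic liver low and the other channels within 0.73 of each other. Its relative Cyp26a1, the form of hepatocytes, had -0.12 ± 0.21 and 0.17 ± 0.21. Of 24 measured retinoid genes the only other at 2-fold was Aldh1a1.

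**Figure D3:**
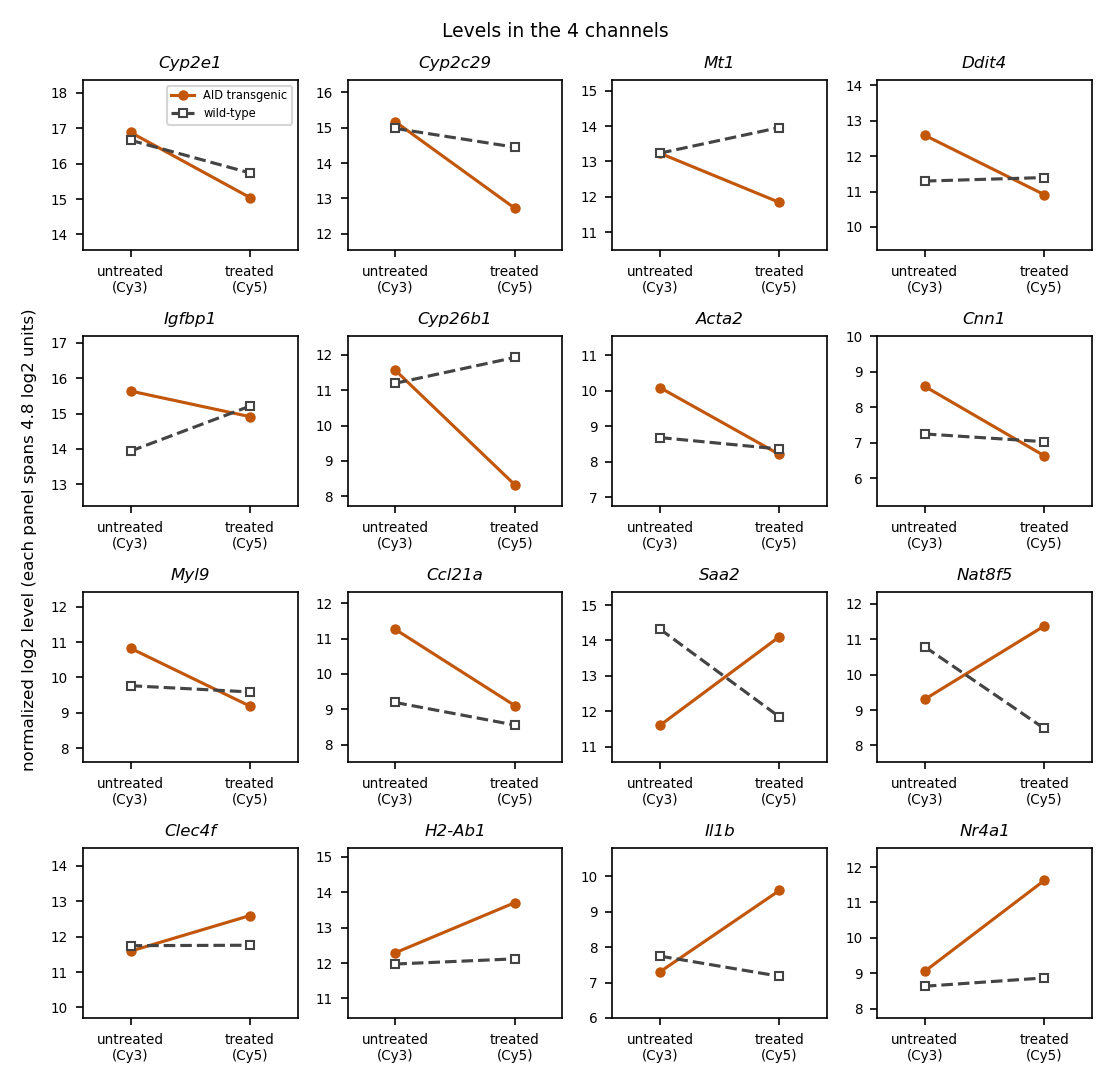
Normalized log2 levels of 16 genes in the 4 channels, untreated at left and treated at right, with filled circles for AID transgenic and open squares for wild-type liver; every panel spans the same number of log2 units. In Cyp2c29, Mt1 and Cyp26b1 the treated transgenic liver is the low channel, and in Acta2, Cnn1, Myl9, Ccl21a and Ddit4 the untreated transgenic liver is the high channel. In Saa2 and Nat8f5 the lines run in opposite directions, each by at least 2-fold.

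Of 18 Kupffer cell markers, genes of the resident macrophages of the liver, 4 rose, 0 fell and the others did not reach 2-fold in the treated transgenic liver. Ratios were above 0 in 14 of the 18, and the lowest was -0.88. The list's median was 0.82, against 0.01 on the wild-type array, where 0 rose and 1 fell. Cd5l, a scavenger protein of tissue macrophages, went from 12.28 to 13.75, and in wild-type from 12.20 to 12.35. Clec4f, a lectin that in mice marks Kupffer cells, had 11.59 and 12.60, against 11.75 and 11.76 in wild-type. The complement receptor gene Vsig4 and the iron exporter gene Slc40a1 rose by 1.12 ± 0.23 each, with wild-type ratios of 0.71 ± 0.22 and 0.74 ± 0.22. The untreated livers lay together in these 4 genes.

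Of 32 markers of recruited and scar-associated macrophages 5 rose, led by Cd63, a lysosomal tetraspanin gene also made by hepatocytes (10.71 to 13.03), Lgals3, galectin 3 (9.50 to 11.02), the cathepsin gene Ctss (11.27 to 12.72) and the adaptor gene Tyrobp (10.25 to 11.41). Their wild-type ratios were 2.87, 0.67, 0.51 and 0.15 in the same order. In wild-type 5 of 31 markers rose and 1 fell. The list's median was 0.57 against 0.37, and 15 of 31 ratios were higher on the transgenic array. Trem2, a marker of lipid-laden macrophages, had 0.63 ± 0.28 on the transgenic array and 1.54 ± 0.30 on the wild-type one. Gpnmb, another such marker, was not well above background in either untreated liver, and its level in the treated transgenic liver was at least 1.18-fold higher than the bound for the untreated one.

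Of 11 genes of antigen presentation by MHC class II 4 rose and 0 fell, all 11 had a ratio above 0, and the median was 0.59 against 0.15 in wild-type, where 0 rose. H2-Ab1, a class II beta chain, went from 12.29 to 13.71, against 11.97 and 12.12 in wild-type. Cd74, the invariant chain, went from 11.73 to 12.95, H2-Eb1 from 11.68 to 12.84, and H2-DMb1, which loads peptide, from 8.81 to 10.31. The treated transgenic liver was the high channel of the 4 for each of them. None of 25 class I and immunoproteasome genes passed 2-fold, with B2m at 0.20 ± 0.20 and Psmb8 at 0.46 ± 0.21.

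Of 46 interferon-induced genes 7 rose and 0 fell, with a median of 0.57 against 0.24 in wild-type, where 2 rose. Cxcl10, a chemokine for activated T cells, went from 8.63 to 11.33 and in wild-type from 8.20 to 10.51. The immunity-related GTPase gene Igtp rose from 10.94 to 12.60 (SD 0.02 over 10 spots), and the guanylate-binding protein genes Gbp3 and Gbp4 by 1.64 ± 0.27 and 1.60 ± 0.29. Their wild-type ratios were 0.66, 1.08 ± 0.23 and 0.42 ± 0.22. The T cell chemokine gene Cxcl9 rose by 1.09 (SD 0.18 between 2 probes). Cxcl9, Cxcl10, Igtp and the guanylate-binding protein genes are known mainly as targets of interferon gamma.

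The interferon-stimulated response element was searched for upstream as GAAA followed after any 2 bases by GAAA, on both strands. It was in 19 of 35 measured interferon-induced genes with a promoter in the table, against 3.46% of all genes. Of the 5 that rose and had a promoter 4 held it, and their sequences are printed because this element was the most frequent of the 4 searched in its own list. They lie at chr5:92348890-92349139 (minus strand) for Cxcl10, chr11:58199306-58199555 (plus strand) for Igtp, chr3:142559794-142560043 (plus strand) for Gbp3 and chr11:58214727-58214976 (plus strand) for Irgm2, another immunity-related GTPase gene (1.27 ± 0.24).
Cxcl10: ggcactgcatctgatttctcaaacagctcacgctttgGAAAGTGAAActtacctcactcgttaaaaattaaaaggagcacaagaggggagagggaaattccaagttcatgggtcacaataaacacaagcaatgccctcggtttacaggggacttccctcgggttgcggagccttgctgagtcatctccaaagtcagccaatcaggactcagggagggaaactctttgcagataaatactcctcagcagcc
Igtp: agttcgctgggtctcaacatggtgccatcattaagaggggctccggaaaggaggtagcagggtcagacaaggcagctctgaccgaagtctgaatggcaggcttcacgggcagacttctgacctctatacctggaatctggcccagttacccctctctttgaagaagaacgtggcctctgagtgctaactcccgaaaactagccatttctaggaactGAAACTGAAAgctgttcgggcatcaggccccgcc
Gbp3: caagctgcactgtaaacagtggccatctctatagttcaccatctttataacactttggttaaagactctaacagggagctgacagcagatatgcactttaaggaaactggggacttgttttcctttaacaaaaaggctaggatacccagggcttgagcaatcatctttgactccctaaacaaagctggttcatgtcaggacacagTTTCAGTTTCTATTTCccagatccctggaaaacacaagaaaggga
Irgm2: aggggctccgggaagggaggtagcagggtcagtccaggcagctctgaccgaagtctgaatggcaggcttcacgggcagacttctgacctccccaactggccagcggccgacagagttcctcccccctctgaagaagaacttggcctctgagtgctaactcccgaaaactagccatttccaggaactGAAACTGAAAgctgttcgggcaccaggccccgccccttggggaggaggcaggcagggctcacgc
The match begins 213 bases before the start in Cxcl10, 34 in Igtp and 64 in Irgm2, and Gbp3 holds 2 overlapping ones at 45 and 39 bases, read on the other strand. The clock list was scanned for the E-box CACGTG, present in 6 of 18 measured members with a promoter, in 0 of the 2 that reached 2-fold and in 6.86% of all genes.

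Of 35 chemokine and receptor genes 6 rose, 1 fell and the others did not reach 2-fold, with a median of 0.17. Beside Cxcl10 these were Ccl5, which draws T cells and monocytes (8.57 to 10.27, wild-type 8.39 to 8.80), the neutrophil chemokine gene Cxcl1 (7.83 to 9.18, wild-type 8.96 to 9.08) and the monocyte chemokine gene Ccl2 (1.30, SD 0.15 over 10 spots, wild-type 1.06), with Cxcl9 and Ccl24 at 1.09 and 1.13. Ccl21a, made by lymphatic endothelium and portal stroma, fell from 11.26 to 9.11, against wild-type levels of 9.20 and 8.56. Of 27 interleukin 1, inflammasome and TNF family genes 2 rose and 0 fell. Il1b, the inflammasome cytokine, rose from 7.31 to 9.60, with an SD of 0.09 over 9 spots, while wild-type had 7.75 and 7.18. Tnfaip2, a TNF-induced gene, rose by 1.11 (SD 0.09 between 2 probes).

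Few markers of other blood cells reached 2-fold. S100a9, a neutrophil calcium-binding protein gene, rose from 7.85 to 9.45 (wild-type 8.64 to 8.13), the 1 gene of 16 on the neutrophil list to pass 2-fold, and its partner S100a8 had 0.79 ± 0.28. None of 28 T and NK cell genes rose and 1 fell, Zap70, a T cell kinase (-1.02, SD 0.12 between 2 probes), while Cd3e had -0.31 ± 0.21. Of 24 B and plasma cell genes 1 rose, the B cell receptor gene Cd79b (1.12 ± 0.26), and Cd79a was not well above background in untreated liver, with 6.31, and stood at 6.45 treated. Hba-a1 of red cells had -0.35 ± 0.21. Of 33 endothelial markers 2 rose, Cd36 and the Notch ligand gene Dll4 (1.03 ± 0.26), while Stab2 and Lyve1 of sinusoids had 0.30 ± 0.21 and 0.48 ± 0.22.

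The stress lists differed in their counts at 2-fold, where 1.22% of all measured genes rose and 0.947% fell. Of 26 immediate early genes 3 rose, Nr4a1, Dusp6 and Egr1. Nr4a1, an orphan receptor induced within minutes of many signals, had 9.06 and 11.62 in transgenic and 8.63 and 8.87 in wild-type liver, so that the treated transgenic liver was the high channel. Dusp6, which dephosphorylates ERK, and Egr1 rose by 1.64 ± 0.26 and 1.34 ± 0.24, near their wild-type ratios of 1.41 ± 0.24 and 1.75 ± 0.29. Of 36 genes of the unfolded protein and integrated stress responses 0 rose and 2 fell, Chac1, which degrades glutathione (-1.88 ± 0.30), and Ddit4. Hspa5, the chaperone BiP, had 0.05 ± 0.20, Ddit3 0.68 ± 0.22, and none of 24 heat shock genes passed 2-fold.

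Setting the channels side by side shows where the transgenic livers lay apart from wild-type. Of 156 genes that fell and were measured on both arrays, 22 were at least 2-fold higher in untreated transgenic than in untreated wild-type liver, as were 0.258% of all genes measured on both, and 25 were at least 2-fold lower in treated transgenic than in treated wild-type liver (0.769%). The first set holds Acta2, Cnn1, Myl9, Ccl21a, Ddit4, Nr1i2, Igfbp2 and Depp1, and the second the Cyp2c genes, Cyp26b1, Cyp39a1, Mt1, Mt2, Sult1a1 and Fgl1. Of 202 genes that rose, 39 were at least 2-fold higher in treated transgenic than in treated wild-type liver (0.763%), among them Cd5l, Cd74, H2-Ab1, H2-Eb1, H2-DMb1, Ccl5, Il1b, S100a9, Nr4a1, Cbr3 and Osgin1, and 6 were at least 2-fold lower in the untreated transgenic liver (0.252%), among them Cxcl1, Saa1 and Saa2. The transgenic ratio uses the same channels, so these shares lie above the background in part by construction and are a description.

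Sex-biased genes bear on the wild-type comparison. Of 23 male-biased genes 5 fell and 1 rose on the transgenic array, against 18 that fell and 0 that rose on the wild-type array. Susd4, a complement regulator gene, had the lowest ratio of the transgenic array, from 12.11 to 8.15, and in wild-type went from 12.36 to 7.70. Hsd3b5, a male-specific steroid dehydrogenase, fell from 14.45 to 12.91 and in wild-type from 13.97 to 10.63. Of 26 female-biased genes 1 rose and 1 fell, Cyp2a4 and Cyp2c39, while 22 of the 29 measured in wild-type rose there. The wild-type values in this text therefore pair livers that differ in sex-linked transcripts, and their part in a difference between the arrays was not tested. The remaining genes of the lowest 15 were Eif4ebp3, a translation repressor gene (-2.21 ± 0.29), Lhpp, a phosphatase gene (-2.03, SD 0.93 between 2 probes), and the gene model Gm3734 (-2.16 ± 0.31), with wild-type ratios of -1.86 ± 0.27, -1.63 and -2.39 ± 0.34.

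**Figure D4:**
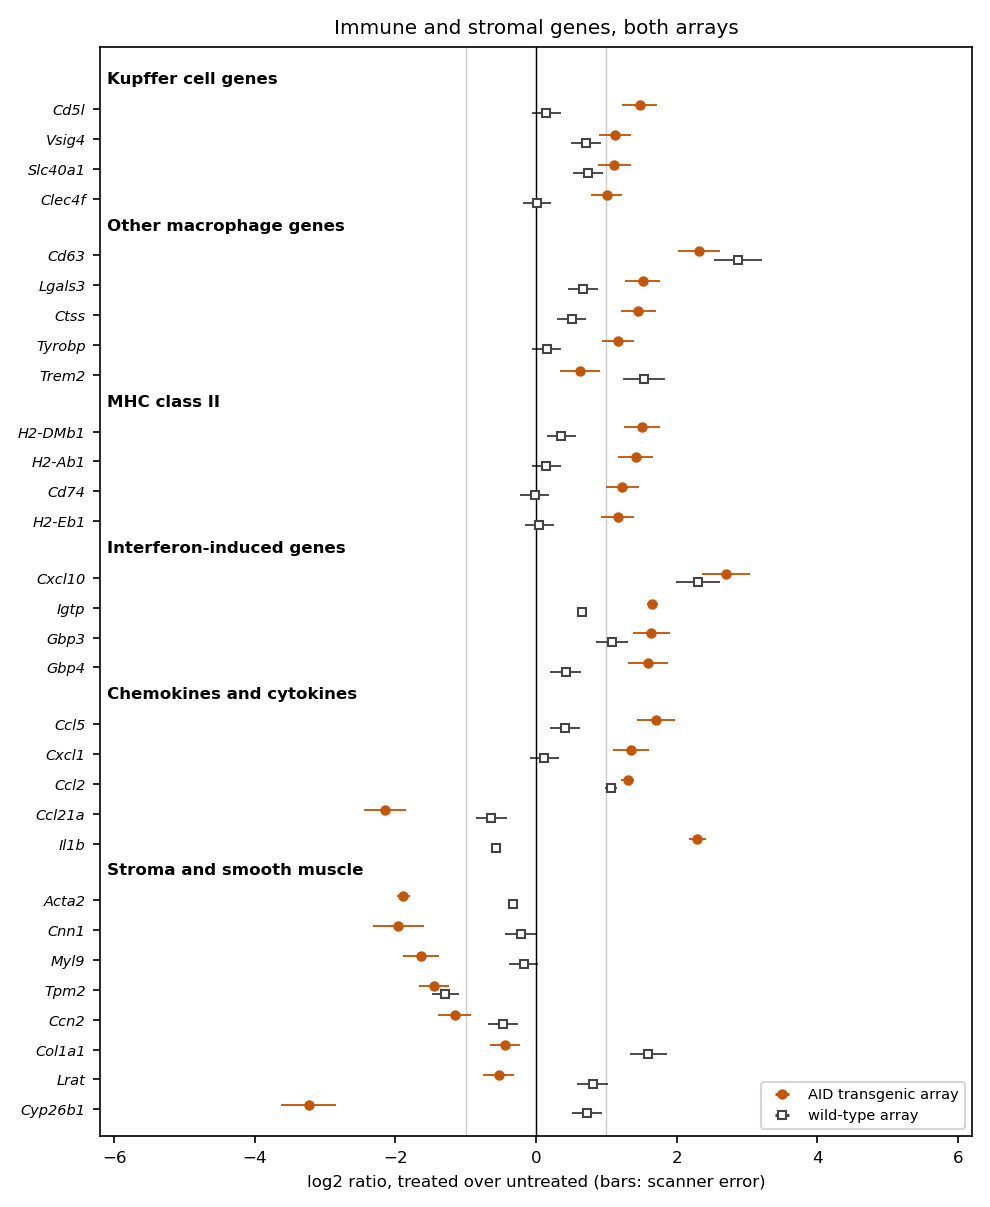
Log2 ratios of treated over untreated liver for named immune and stromal genes, filled circles for the AID transgenic array and open squares for the wild-type array, with bars for the scanner software's error averaged over the spots and probes of a gene. Vertical lines mark 2-fold. All 4 MHC class II genes and Cd5l lie above 1 on the transgenic array and below 1 on the wild-type array, and Acta2, Cnn1, Myl9 and Cyp26b1 lie below -1 on the transgenic array alone.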

How the data were processed

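Treated and untreated liver RNA was compared on 1 array per genotype, both on the same slide and scan. Per the file headers, the authors deposited the scanner output of Feature Extraction 10.7.3.1 (10.5.1.1 per the submitters' processing notes): spot and background intensity values as scanned, and processed intensity values that the software background-subtracted, detrended and dye-normalized. The deposited log10 ratio is red over green processed signal, and its deposited error is a score of the scanner's error model. The deposited value table equalled the scanner's log10 ratio on 44397 of 44397 features (tolerance 1e-09), with column medians of 0.

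limma 3.58.1 in R 4.3.3 corrected the mean signals by normexp (offset 50) and normalized each array by loess. Control spots and 207 outlier spots of 43020 on the transgenic array (197 on the wild-type array) were left out. On the transgenic array 53.9% of non-control spots passed the background flag in Cy3 and 68.8% in Cy5, and 0 were saturated. Levels are Aquantile-normalized log2 signals and are compared only within a gene. Probes were averaged per gene, and 9249 probes matched no symbol of the GRCm38.p6 table. A fold whose dimmer side did not pass that flag is a lower bound against the higher of its own level and the lowest level above background. Python 3.11.15, numpy 2.4.6, pandas 2.3.3 and matplotlib 3.10.9 did the rest. The normalization was tested on simulated data.

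No test was possible, so genes are called at a log2 ratio of 1. The arrays, the 65 gene lists and the genes always named were chosen with earlier results of these data known. Named genes are the 15 highest and 15 lowest ratios (above background in both channels, probes of 1 sign), up to 4 members per direction of each list, genes called in opposite directions on the 2 arrays, and the fixed set. Otc, Cps1, Spink1, Ccl24, Cyp2c38, Cyp2j5, Irgm2, Col7a1, Mcm10, Incenp, Kif22 and Serpina5 were added after their values were seen. Some genes of the fixed set are not reported here.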

Additional observations from a re-analysis of the deposited data

Results flagged for a closer look

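For 6 genes the treatment ratio was at least 2-fold in opposite directions on the 2 arrays, each array moving 1 way, and with 1 array per genotype the difference was not tested. Saa2 and Saa1, acute phase apolipoproteins, had 2.50 ± 0.31 and 1.80 ± 0.27 on the AID transgenic array and -2.48 ± 0.31 and -2.13 ± 0.28 on the wild-type array, differences of 4.98 and 3.93. Nat8f5, an acetyltransferase gene of the male-biased list, had 2.07 ± 0.29 and -2.30 ± 0.31, a difference of 4.37. Its levels were 9.31 and 11.37 in untreated and treated transgenic liver and 10.78 and 8.48 in wild-type liver. Esm1, an endothelial proteoglycan gene, had 1.27 ± 0.27 and -1.16 ± 0.28, a difference of 2.44. Depp1, a FOXO target gene of fasting, had -1.32 ± 0.24 and 1.05 ± 0.23, a difference of -2.37, with its high level in the untreated transgenic liver (12.41, against 11.09 treated and 10.79 and 11.84 in wild-type). The X-linked Xlr3b had -1.51 (SD 0.11 between 2 probes) and 1.54, a difference of -3.05. The wild-type channels differed in sex-linked transcripts, and the part of this in the 6 differences was not tested.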

How the results depend on the processing

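No paired analysis was possible because each genotype has 1 array. With a normexp offset of 0, 889 genes reached 2-fold on the transgenic array (620 higher, 269 lower, 69.7% higher), and 759 differed between the arrays (316 and 443). The scanner's processed signals gave 1994 (1528 and 466, 76.6% higher) and 1395 (654 and 741). Median centring gave 1411 (1358 and 53, 96.2% higher). Counts that required every channel above background, used the brightest probe, or left out sex-biased and sex chromosome genes stayed within 1.5 times. Why the counts moved was not tested. The median of 19 of 65 lists changed sides of the all-gene median with median centring, and of 3 under each other setting. All named genes at 2-fold kept their sign under every setting tried, and 104 of 142 stayed at 2-fold with median centring. Requiring all 4 channels above background, an alternative chosen after seeing the data, left 20 of 22 genes that fell and were 2-fold higher in untreated transgenic than untreated wild-type liver.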
